A study of Mus musculus with 10 samples.

Results

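The 7 genes described here, Fmr1, Cask, Iqsec2, Pak3, Cnksr2, Tspan7 and Dlg3, lie on the X chromosome and are known for neurodevelopmental disorders and for roles at the synapse. They were taken by name from the gene tables of all 10 samples, as 7 of the 24386 genes listed and 7 of the 1028 on the X chromosome. For 6 of them new transcription was measured in every sample, with at least 70 allele-assigned reads each time. The other, Cask, was listed at 0 reads throughout.

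The cells were TX1072 embryonic stem cells, a female mouse line from a cross of Mus musculus castaneus and C57BL/6, in which the endogenous Xist gene on the C57BL/6 (B6) X chromosome carries a doxycycline (DOX)-inducible promoter. The genotype was labelled WT in all samples, and every culture was grown in serum medium with LIF and 2i, which holds the cells undifferentiated. DOX at 1 µg/ml was added for 0, 4, 8, 12 or 24 h, with 2 replicates per time, and 4-thiouridine at 0.5 mM then labelled new RNA for 5 min (transient transcriptome sequencing, TT-seq). The 0 h samples are the controls without Xist induction. All samples come from 1 cell line, DOX went on after plating so that time with DOX and time in culture rose together, and the Cast X served as the allele without induced Xist.

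X-chromosome inactivation evens out the X dosage between XX and XY mammals. Xist RNA spreads along the chromosome that makes it and genes on that chromosome are turned off. Many X-linked genes are needed by neurons, and since males have a single copy, their loss is a common cause of inherited intellectual disability. Their products act in translational control (FMRP, from Fmr1), in scaffolds under the synaptic membrane (Dlg3, Cask, Cnksr2), in signalling to the actin skeleton and to membrane traffic (Pak3, Iqsec2), and in the cell surface (Tspan7). In this line the share of reads from the B6 allele is used to follow silencing in cis, with the Cast allele of the same cells as an internal reference.

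Samples held 18809046 to 22274929 read pairs assigned to genes, of which 49.2% to 52.8% could be given to an allele. Xist rose from 1.41 and 1.53 counts per 1000000 counted reads (CPM) at 0 h to between 329 and 664 CPM with DOX. Of 7 stem cell markers, 6 exceeded 1 CPM at 0 h and their summed level was 2587 to 2845 CPM in all samples, with Sox2 at 0. Of 10 neuronal and neural progenitor markers, 5 exceeded 1 CPM at 0 h. Their sum was 137 to 196 CPM, most of it from Map2 (130 CPM at 0 h) and Gad1 (23.4 CPM). Tubb3 stood at 9.94 CPM, Rbfox3 at 3.16 CPM and Syt1 at 2.57 CPM, while Pax6, Neurod1, Snap25 and Slc17a7 were each under 1 CPM and Sox1, like Sox2, was listed at 0. Whether Sox1 and Sox2 overlap other entries of their own strand was not checked. Their 0 was therefore not read as absence of transcription. Primitive endoderm markers summed to 1.78 to 2.83 CPM and fibroblast markers to 1.82 to 4.57 CPM.

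Transcription of synaptic genes in undifferentiated cells was compared first, as CPM per kb of the whole gene, introns included. Before DOX, Fmr1 was the most strongly transcribed of the 6 measured genes, at 5.41 ± 0.75 (SD, n = 2), place 69 of 1026 X-linked genes and place 1375 of 24386 in all. Dlg3 followed at 0.817 ± 0.102 and Tspan7 at 0.816 ± 0.021, and the ranges of these 2 genes overlapped. Lower still were Cnksr2 at 0.326 ± 0.053, Iqsec2 at 0.172 ± 0.036 and Pak3 at 0.0554 ± 0.0066. Apart from Dlg3 and Tspan7, neighbours in this order did not overlap at 0 h, so that the level per length of Fmr1 and that of Pak3 stood at the ends of the group in both replicates. The order of the ends was unchanged at 24 h, when Fmr1 stood at 4.33 and 3.98 and Pak3 at 0.0284 and 0.0301 CPM per kb in the 2 replicates.

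**Figure D1:**
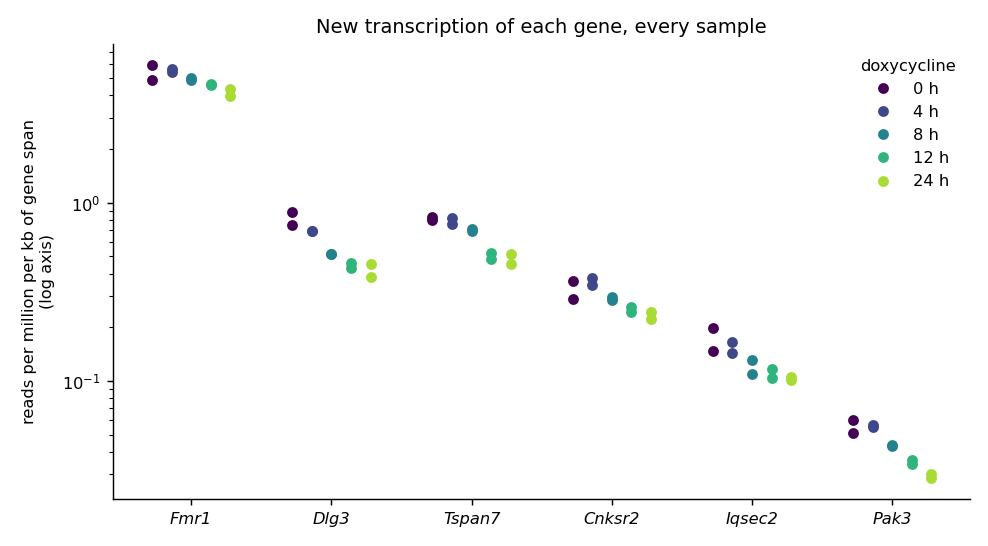
Level of new transcription of the 6 measured genes (CPM per kb of gene span, log axis) in each of the 10 samples, coloured by hours of DOX. Fmr1 lies above all other genes at every time, at 3.98 to 5.94, and Pak3 lies below them at 0.0284 to 0.0601.

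Cask encodes a membrane-associated guanylate kinase scaffold of the presynaptic terminal. Its entry, on the minus strand at chrX:13517081-13846556 (mm10, 329 kb, protein coding), held 0 reads in all 10 samples. It lies within another entry of the same table, Btbd35f15, which runs over 29.8 Mb of the same strand (chrX:3750926-33577346) and took 7705 to 10237 reads per sample. All 82 minus-strand genes inside that entry were at 0 in every sample, against 31 of 101 plus-strand genes there (30.7%). On the rest of the X chromosome 78 of 419 minus-strand genes (18.6%) and 99 of 424 plus-strand genes (23.3%) were at 0 throughout. By the counting settings described for these files, a read pair that falls on several genes of the same strand is not assigned. The 0 of Cask was thus not read as absence of transcription, and no level, allelic share or silencing time is given for it. None of the other 6 genes overlapped another entry of its own strand.

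**Figure D2:**
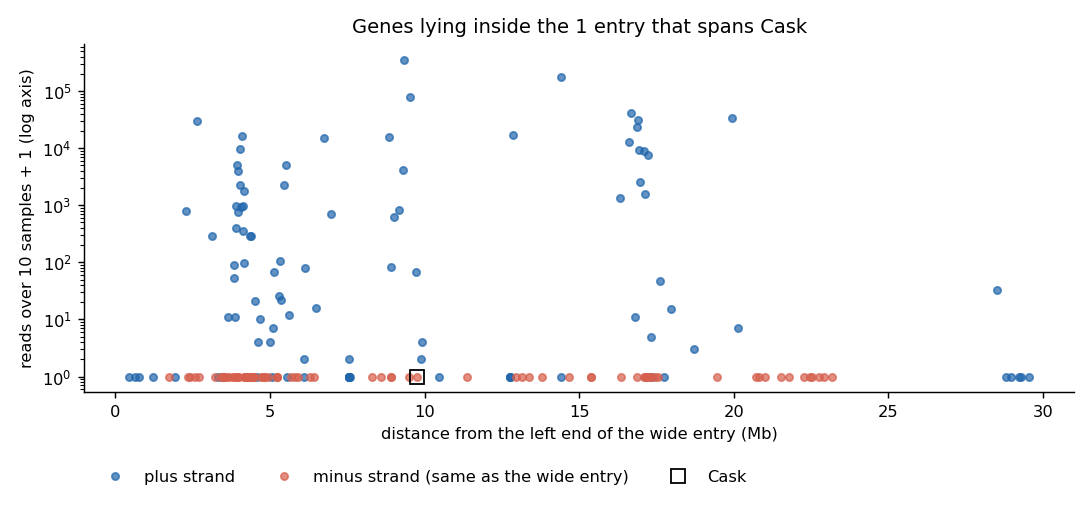
Reads summed over the 10 samples, plus 1 (log axis), for the 183 genes inside the entry that spans Cask, against distance in Mb from the left end of that entry. All 82 genes on the entry's own strand, Cask among them (open square), sit at 0 reads, while plus-strand genes beside them reach 352205 reads.

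The B6 share of allelic reads was then followed as the d-score, B6 / (B6 + Cast), where 0.5 is equal output from both alleles. At 0 h it was close to 0.5 in Fmr1 (0.505 ± 0.003, SD, n = 2), Iqsec2 (0.508 ± 0.017), Pak3 (0.515 ± 0.004) and Tspan7 (0.527 ± 0.030). It was higher in Cnksr2 (0.605 ± 0.020) and Dlg3 (0.642 ± 0.010), whose replicates did not overlap those of the other 4 genes. Among the 329 X-linked genes used for time courses, which had enough reads and a 0 h d-score from 0.3 to 0.7, these values took places 16 and 6 from the top, with genes above 0.7 not ranked, and both genes gave more B6 than Cast reads before any Xist was induced. To set genes side by side, each later d-score was divided by the 0 h value of the same replicate and by 2 (normalised d-score, 0.5 at 0 h). A curve through the time points then gave the hour at which 0.35 was crossed, the IC35. A share in bulk RNA cannot tell fewer cells with a silent allele from less silencing per cell.

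Pak3 encodes a p21-activated kinase, an effector of Rac and Cdc42 in dendritic spines, and lies on the plus strand at chrX:143518591-143797796 (279 kb), 40.0 Mb from Xist. It lost the largest part of its B6 output among the 6 genes. In replicates 1 and 2 its d-score was 0.518 and 0.513 before DOX, then 0.539 and 0.487 (4 h), 0.333 and 0.295 (8 h), 0.221 and 0.256 (12 h) and 0.163 and 0.196 (24 h). The samples of 0 h and 4 h overlapped and all later samples lay below them. At 24 h, 14 of 86 and 21 of 107 allelic reads were B6, with 95% Wilson intervals on the d-score of 0.100 to 0.255 and 0.132 to 0.281 that cover counting error only. The B6:Cast ratio was 4.77-fold lower at 24 h than at 0 h (log2 change -2.25, SE 0.30, adjusted p = 1.2e-09, edgeR quasi-likelihood test with Benjamini-Hochberg adjustment). B6 reads went from 3.40 and 4.65 CPM at 0 h to 0.712 and 0.943 CPM at 24 h, while Cast reads were 3.16 and 4.42 CPM at 0 h and 3.66 and 3.86 CPM at 24 h.

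Iqsec2 encodes an exchange factor for Arf GTPases in the postsynaptic density and lies on the plus strand at chrX:152144268-152225237 (81.0 kb). With 70 to 152 allelic reads per sample it had the fewest reads of the group. Its d-score was 0.520 and 0.496 before DOX, then 0.508 and 0.475 (4 h), 0.333 and 0.408 (8 h), 0.253 and 0.181 (12 h) and 0.229 and 0.286 (24 h). Samples from 8 h onward lay below those of 0 h and 4 h, and the 12 h and 24 h samples overlapped. In log2 terms the B6:Cast ratio had moved by -1.90 after 12 h (SE 0.32, adjusted p = 3.2e-06 in edgeR). The 24 h value was -1.56 (SE 0.32, adjusted p = 0.00023 in edgeR), and this call was lost with DESeq2, where the adjusted p was 0.057.

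Dlg3 encodes SAP102, a scaffold that binds NMDA receptors, and is the gene of the group nearest to Xist, 2.72 Mb away on the plus strand at chrX:100767722-100818410 (50.7 kb). Its d-score began high, at 0.635 and 0.649, and 4 h of DOX left it at 0.624 and 0.592. Later values were 0.441 and 0.471 (8 h), 0.407 and 0.310 (12 h) and 0.367 and 0.259 (24 h). All samples from 8 h onward lay below 0.5, on the Cast side, whereas all of 0 h and 4 h lay on the B6 side. In reads, 228 and 248 B6 reads against 131 and 134 Cast reads at 0 h became 55 and 55 B6 reads against 95 and 157 Cast reads at 24 h. The log2 change in B6:Cast ratio at 24 h was -2.03 (SE 0.21, edgeR adjusted p = 1.4e-14).

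Cnksr2 encodes a scaffold that links Ras signalling to the postsynaptic density and lies on the minus strand at chrX:157821573-158043197 (222 kb). Its d-score was 0.620 and 0.591 before DOX, then 0.608 and 0.566 (4 h), 0.519 and 0.464 (8 h), 0.450 and 0.395 (12 h) and 0.427 and 0.401 (24 h). The 12 h and 24 h samples overlapped. At 24 h the log2 change in B6:Cast ratio was -1.11 (SE 0.14, edgeR adjusted p = 5.7e-11), so that the gene moved from an excess of B6 to an excess of Cast reads without coming near to Cast alone.

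Fmr1 encodes FMRP, an RNA-binding protein that represses translation near synapses, and its loss of expression causes fragile X syndrome. It lies on the plus strand at chrX:68678541-68717961 (39.4 kb), 34.8 Mb from Xist, and held 1241 to 1920 allelic reads per sample. Its d-score was 0.507 and 0.503 before DOX, then 0.469 and 0.483 (4 h), 0.417 and 0.399 (8 h), 0.386 and 0.405 (12 h) and 0.385 and 0.343 (24 h). Samples of 0 h, 4 h and 8 h did not overlap one another, and those of 8 h and 12 h did. At 24 h the log2 change in B6:Cast ratio was -0.83 (SE 0.09, edgeR adjusted p = 2.1e-14), a 1.78-fold lower ratio. Replicate 1 still gave 478 B6 reads to 763 Cast reads at that time, and replicate 2 gave 460 to 880.

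Tspan7 encodes a tetraspanin of the neuronal surface that takes part in AMPA receptor traffic. It lies on the plus strand at chrX:10485116-10596604 (111 kb), the farthest of the 6 measured genes from Xist at 93.0 Mb. Its d-score was 0.506 and 0.548 before DOX, then 0.520 and 0.499 (4 h), 0.474 and 0.463 (8 h), 0.444 and 0.455 (12 h) and 0.426 and 0.390 (24 h). Samples of 0 h and 4 h overlapped, and those of 24 h lay below all others. The shift was the smallest of the group, with a log2 change in B6:Cast ratio of -0.71 after 24 h (SE 0.11, adjusted p = 4.1e-07 in edgeR). The 12 h change of -0.46 passed the test in edgeR (SE 0.11, adjusted p = 0.0049), but the call was lost in DESeq2 (adjusted p = 0.48) and in 3 fits that each left out 1 library. Those libraries were 0 h replicate 2, where the edgeR adjusted p became 0.43, and 12 h replicates 1 and 2, where it became 0.12 and 0.0502.

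By time, 0 of 6 genes had a lower B6 share after 4 h of DOX, 4 after 8 h, and 6 after both 12 h and 24 h (edgeR, adjusted p under 0.05). Of all genes tested, 0.344%, 1.62%, 2.04% and 2.4% had a lower B6 share at the same 4 times. Of X-linked genes alone, 11.4%, 52.6%, 65.4% and 75.1% did, which is the background against which the counts of the 6 genes have to be read. None of the 6 had a higher B6 share at any time, and of all genes 0.0168%, 0.042%, 0.109% and 0.235% did. At 4 h 1 gene, Fmr1, had an unadjusted p under 0.05, and DESeq2 called none. The genes that passed at 8 h were Pak3 (log2 -1.21), Dlg3 (-1.10), Cnksr2 (-0.65) and Fmr1 (-0.56), while Iqsec2 at -0.86 (edgeR adjusted p = 0.19) and Tspan7 at -0.35 (edgeR adjusted p = 0.073) did not. DESeq2 called 2 of the 6 at 8 h and lost Cnksr2 (adjusted p = 0.15) and Pak3 (adjusted p = 0.15). Without 8 h replicate 2, the same 2 genes had edgeR adjusted p of 0.17 and 0.062.

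The interval with a detectable step was the one between 4 h and 8 h. There the B6 share fell in Pak3 (log2 -1.20), Dlg3 (-0.89), Cnksr2 (-0.55) and Fmr1 (-0.39), with edgeR adjusted p from 0.0013 to 0.0058. Of all genes 1.18% fell in this interval, and of X-linked genes 37.7%. Without 4 h replicate 1 only the call of Fmr1 was left, without 8 h replicate 2 only that of Dlg3, and DESeq2 made none. From 8 h to 12 h and from 12 h to 24 h no gene of the 6 passed in edgeR or DESeq2, with 3 and 2 of them at an unadjusted p under 0.05, and 0.454% and 0.235% of all genes (13.9% and 6.65% of X-linked genes) had a lower B6 share. For Iqsec2 the largest step was from 8 h to 12 h (log2 -1.03, SE 0.35, edgeR adjusted p = 0.36).

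**Figure D3:**
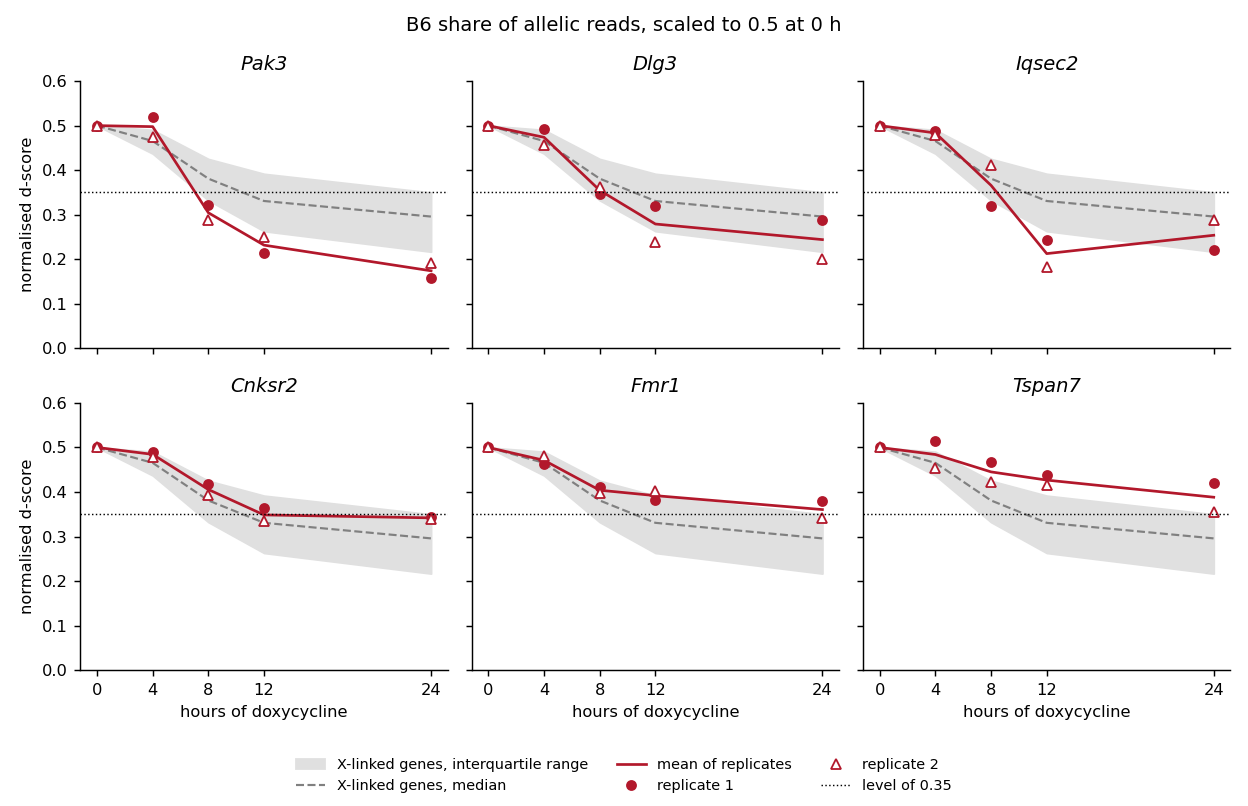
Normalised d-score (0.5 at 0 h) against hours of DOX for the 6 genes, with both replicates, their mean, and the median and interquartile range of 329 X-linked genes. The mean of Pak3 ends below the X-linked interquartile range at 0.174, and the means of Fmr1 (0.361) and Tspan7 (0.388) end above it. Replicate 2 of Fmr1, at 0.341, lies inside the range.

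Pak3 crossed 0.35 first, at 7.21 h, with 7.62 h and 6.68 h when replicates 1 and 2 were fitted alone. Iqsec2 followed at 8.10 h (7.36 h and 8.42 h alone) and Dlg3 at 8.15 h (8.05 h and 8.12 h alone). The replicate fits of Pak3 lay before both of Dlg3, and those of Iqsec2 overlapped the range of each. A fit to 1 replicate set 4 parameters on 5 time points. The closeness of the replicate fits therefore does not measure how precise the hour is. Cnksr2 crossed at 12.67 h, with a wide gap between the replicate fits of 15.86 h and 10.89 h. Fmr1 and Tspan7 did not reach 0.35 within 24 h, although replicate 2 of Fmr1 did so alone at 21.66 h. Of 329 X-linked genes fitted, 248 reached 0.35, and the median IC35 was 9.73 h. Shorter IC35 values were found in 24.3% of X-linked genes for Pak3, 33.7% for Iqsec2, 34.7% for Dlg3 and 62.0% for Cnksr2.

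At 24 h the normalised d-score was 0.174 ± 0.024 (SD, n = 2) in Pak3, 0.244 ± 0.063 in Dlg3, 0.254 ± 0.048 in Iqsec2, 0.342 ± 0.004 in Cnksr2, 0.361 ± 0.027 in Fmr1 and 0.388 ± 0.046 in Tspan7. In this order the replicates of Pak3 did not overlap those of Dlg3, nor those of Iqsec2 the ones of Cnksr2. Dlg3 and Iqsec2 overlapped, and so did Cnksr2, Fmr1 and Tspan7 with their neighbours. The X-linked median was 0.296, with quartiles of 0.217 and 0.35. Differences between genes were not tested. The raw d-score gave another order at the upper end, with Cnksr2 (0.414 ± 0.019) and Tspan7 (0.408 ± 0.025) overlapping and Fmr1 at 0.364 ± 0.030, because Cnksr2 began with the higher B6 share.

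By level per length, the 3 genes with the lowest levels, Pak3, Iqsec2 and Cnksr2, had normalised d-scores at 24 h in the same order, and Fmr1 and Tspan7 above them, but Dlg3, level with Tspan7, was silenced more than Cnksr2. By span, Pak3 at 279 kb had the lowest normalised d-score at 24 h, but those of Cnksr2 at 222 kb and Tspan7 at 111 kb were among the highest. Dlg3, 2.72 Mb from Xist, and Iqsec2, 48.7 Mb away, had nearly the same IC35. Over the 329 X-linked genes the normalised d-score at 24 h went weakly with the log10 level per kb at 0 h (Pearson r = 0.23, Spearman correlation 0.26), with distance from Xist (0.22 and 0.17) and with log10 span (-0.12 and -0.14). These are descriptions across genes that share all libraries. The 68 genes longer than 100 kb had a median of 0.273 at 24 h and the other 261 a median of 0.306.

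To show what lies before gene starts, the 250 bases upstream of the RefSeq start (GRCm38.p6, at the start given in the gene table) are printed for Pak3, Tspan7 and Fmr1. Pak3 and Tspan7 had the lowest and the highest mean normalised d-score at 24 h, and Fmr1 was the most transcribed. Capitals mark matches to 4 motifs, each searched on both strands. The E-box was CACGTG. The GC box was searched as GGGCGG, a letter string found before many genes without a TATA box. The TATA box was searched as TATAAA. The core of the motif of NRF1, a factor of many CpG-rich promoters, was searched as GCATGCG. The windows are chrX:143518341-143518590 for Pak3, chrX:10484866-10485115 for Tspan7 and chrX:68678291-68678540 for Fmr1, all on the plus strand.
Pak3: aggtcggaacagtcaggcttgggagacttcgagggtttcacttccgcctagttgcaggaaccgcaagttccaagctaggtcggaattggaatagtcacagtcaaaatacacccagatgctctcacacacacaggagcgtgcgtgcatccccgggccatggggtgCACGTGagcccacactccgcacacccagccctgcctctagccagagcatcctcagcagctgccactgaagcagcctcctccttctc
Tspan7: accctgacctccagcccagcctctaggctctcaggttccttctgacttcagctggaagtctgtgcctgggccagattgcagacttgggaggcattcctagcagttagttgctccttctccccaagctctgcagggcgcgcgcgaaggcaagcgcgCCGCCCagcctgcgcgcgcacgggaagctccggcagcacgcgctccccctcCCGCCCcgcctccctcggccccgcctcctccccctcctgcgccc
Fmr1: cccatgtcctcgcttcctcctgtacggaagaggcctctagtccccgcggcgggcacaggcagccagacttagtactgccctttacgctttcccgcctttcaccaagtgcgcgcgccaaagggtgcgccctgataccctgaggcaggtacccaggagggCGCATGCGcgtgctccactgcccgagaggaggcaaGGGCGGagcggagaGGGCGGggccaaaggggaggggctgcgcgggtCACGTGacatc

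The Pak3 window held 10 CpG and a GC content of 58.4%, with 1 E-box and none of the other motifs. Windows at further RefSeq starts, 147154 and 174696 bases inside Pak3, held 3 CpG each and none of the motifs. Fmr1, Iqsec2 and Cnksr2 also had further starts. Which start these cells use was not tested. The Tspan7 window held 19 CpG (69.2% GC) and 2 GC boxes, read on the minus strand as CCGCCC. The Fmr1 window held 21 CpG (67.2% GC), 2 GC boxes, 1 E-box next to the start, and the NRF1 core on both strands of 1 palindromic run, a candidate site in letters only. Cnksr2 (43 CpG, 3 GC boxes) and Iqsec2 (34 CpG, 5 GC boxes) had the most CpG of the 5 genes whose RefSeq start is the one in the gene table. Over all 32851 such windows of the RefSeq table the median was 6 CpG, 6.02% held the E-box, 32.7% the GC box, 12.4% the TATA box and 3.02% the NRF1 core. The RefSeq starts of Dlg3 lay 6773 and 9549 bases inside its entry and were not used, and Cask was not matched.

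Counts of each allele were next tested apart, scaled by the library sizes of all reads, to see which allele moved. After 4 h of DOX 0 of 6 genes had lower B6 counts (none at an unadjusted p under 0.05), after 8 h 2 (Dlg3 and Pak3), and after 12 h and 24 h all 6. With the replicate number as a block 3 passed after 8 h, Iqsec2 in addition. The background of lower B6 counts at these times was 0.0168%, 1.23%, 2.01% and 2.42% of all genes, and 0.554%, 40.7%, 63.4% and 75.3% of X-linked genes. At 24 h the log2 change in B6 count was -2.26 for Pak3, -2.07 for Dlg3, -1.75 for Iqsec2, -1.07 for Tspan7, -0.87 for Cnksr2 and -0.76 for Fmr1, and no call was lost when any 1 library was left out. For the 8 h comparison 5 genes passed without 0 h replicate 1, and only Dlg3 passed without 0 h replicate 2 or without either 8 h replicate.

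Cast counts changed in 0 of the 6 genes at every time in edgeR without a replicate block, and with the block in 1 at 12 h, Tspan7. At 24 h 0.084% of all genes were lower and 0.101% higher on this allele (0.277% and 0.554% of X-linked genes), and at the earlier times 0% were in either direction. An unadjusted p under 0.05 was seen in 1 gene at 4 h (Cnksr2), none at 8 h, 2 at 12 h (Cnksr2 and Tspan7) and 1 at 24 h (Tspan7). The log2 changes at 24 h ran from -0.36 in Tspan7 to 0.24 in Cnksr2. Leaving out 0 h replicate 2 gave 2 calls at 12 h, both higher, in Cnksr2 (log2 0.72, edgeR adjusted p = 0.025) and Fmr1 (log2 0.43, edgeR adjusted p = 0.025).

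In Tspan7 the Cast reads also stood lower at the late times. They were at 23.2 and 24.0 CPM before DOX, then 22.3 and 26.2 CPM (4 h), 23.9 and 22.9 CPM (8 h), 16.3 and 18.6 CPM (12 h) and 16.4 and 20.1 CPM (24 h). All samples up to 8 h lay above all samples of 12 h and 24 h. The log2 change in Cast count after 12 h was -0.39 (SE 0.12, unadjusted p = 0.0042, edgeR adjusted p = 0.40, and 0.029 with the replicate block). After 24 h it was -0.36 (SE 0.12, unadjusted p = 0.0074, edgeR adjusted p = 0.46). B6 reads of the same gene stood at 23.7 and 29.2 CPM before DOX, 21.5 and 19.8 CPM (8 h), 13.0 and 15.5 CPM (12 h) and 12.2 and 12.8 CPM (24 h). Reads of both alleles thus stood below their 0 h values from 12 h on, and a B6 share takes in only the difference between the alleles.

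**Figure D4:**
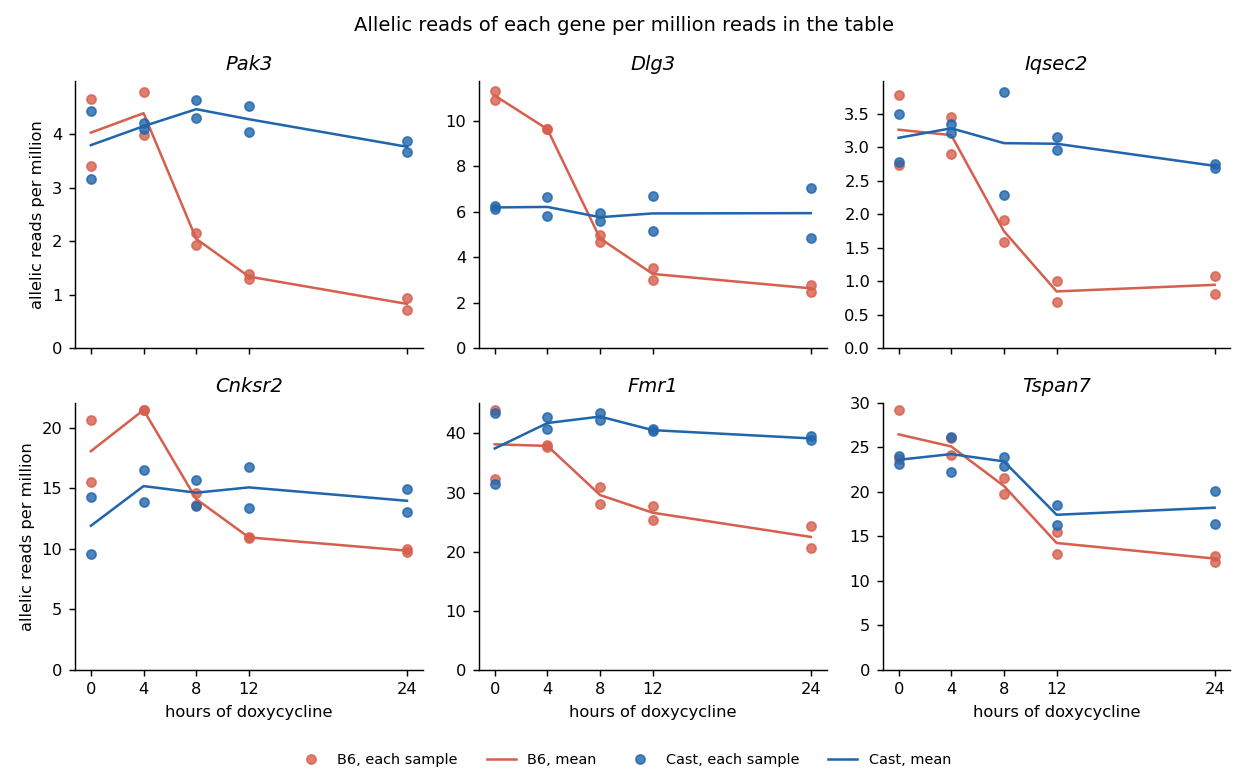
B6 (red) and Cast (blue) reads (CPM) of the 6 genes against hours of DOX, with a point for each sample and lines through the means. From 8 h on the B6 points lie below the Cast points in Pak3 and Dlg3, whereas at 0 h and 4 h those of Dlg3 lie above. In Tspan7 the Cast points go from 23.2 and 24.0 at 0 h to 16.4 and 20.1 at 24 h.

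Total counts, which sum both alleles and the reads without an informative variant, gave the net effect on transcription. Dlg3 had 941 and 828 reads at 0 h and 381 and 509 at 24 h, or 45.1 and 37.8 CPM against 19.4 and 22.9 CPM. Tspan7 had 89.3 and 92.7 CPM at 0 h and 50.6 and 57.6 CPM at 24 h. Fmr1 had 192 and 234 CPM at 0 h, 196 and 193 CPM at 8 h, and 171 and 157 CPM at 24 h. In all 3 genes the samples of 24 h lay below those of 0 h. Pak3 had 14.2 and 16.8 CPM at 0 h and 7.94 and 8.395 CPM at 24 h. Cnksr2 had 63.9 and 80.6 CPM before DOX and 49.3 and 53.6 CPM after 24 h. Iqsec2 had 15.99 and 11.9 CPM before DOX and 8.50 and 8.17 CPM after 24 h. The groups of 0 h and 24 h did not overlap in any of the 6 genes.

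At 24 h the total count was lower in 5 of 6 genes in edgeR. These were Dlg3 (log2 -0.95, SE 0.11, adjusted p = 0.00013), Pak3 (-0.91, SE 0.13, adjusted p = 0.00095), Tspan7 (-0.74, SE 0.09, adjusted p = 0.00025), Iqsec2 (-0.73, SE 0.15, adjusted p = 0.020) and Cnksr2 (-0.48, SE 0.11, adjusted p = 0.037). Fmr1 missed the threshold (log2 -0.37, SE 0.09, edgeR adjusted p = 0.056). With the replicate number as a block it passed (edgeR adjusted p = 0.0011), as it did in DESeq2 (adjusted p = 0.010). Among all genes 1.54% were lower at 24 h and among X-linked genes 37.9%, with an X-linked median log2 change of -0.50. The calls for Iqsec2 and Cnksr2 were lost when either 24 h replicate was left out, when edgeR adjusted p was 0.13 and 0.18 for Iqsec2 and 0.29 and 0.095 for Cnksr2. They were also lost without 0 h replicate 1 for Iqsec2 (0.25) and without 0 h replicate 2 for Cnksr2 (0.22).

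Earlier, 0 of 6 genes had a lower total count after 4 h of DOX (none at an unadjusted p under 0.05 in edgeR, and none in DESeq2), 1 after 8 h and 3 after 12 h. Lower counts made up 0%, 0.186% and 0.854% of all genes, and 0%, 5.39% and 22.6% of X-linked genes. At 8 h the gene was Dlg3 (log2 -0.63, SE 0.10, edgeR adjusted p = 0.022), which lost its call without 0 h replicate 1 (0.26) or either 8 h replicate (0.28 for each). With the replicate block Iqsec2 joined it (log2 -0.48, edgeR adjusted p = 0.041). At 12 h the genes were Dlg3 (log2 -0.82), Tspan7 (-0.65) and Pak3 (-0.61, edgeR adjusted p = 0.032). The Pak3 call at 12 h was lost in 5 of the 10 fits that left out 1 library, with edgeR adjusted p of 0.13 without 0 h replicate 2, 0.052 and 0.053 without 8 h replicates 1 and 2, and 0.29 and 0.16 without 12 h replicates 1 and 2. With the block 5 genes passed at 12 h, with Iqsec2 (edgeR adjusted p = 0.0018) and Cnksr2 (edgeR adjusted p = 0.011) added.

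**Figure D5:**
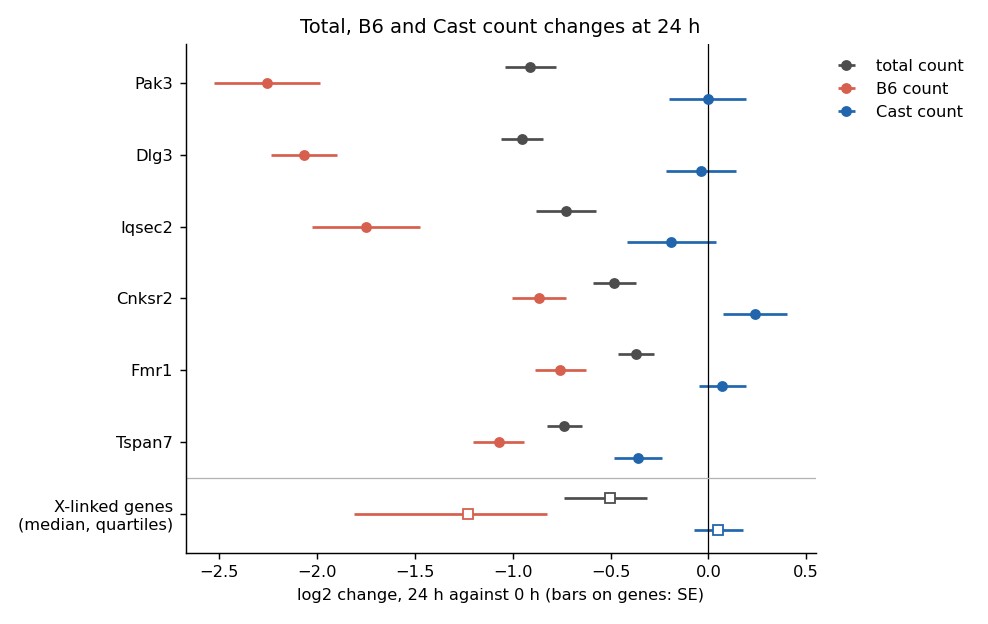
Log2 change from 0 h to 24 h in total, B6 and Cast counts (edgeR, bars are SE), with the median and quartiles of X-linked genes as open squares. The B6 counts of all 6 genes lie to the left of 0, at -0.76 to -2.26, and the Cast counts, none of which passed the test, run from -0.36 in Tspan7 to 0.24 in Cnksr2.

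The change in B6 share and the net change were not in the same order. Tspan7 had the smallest change in B6 share, place 302 of 361 X-linked genes from the lowest, but by B6 count it stood at place 214 of 361, and its total count, which fell by 0.74 on the log2 scale, took place 127 of 501. By B6 count the order was Pak3 (place 41 of 361), Dlg3 (61), Iqsec2 (101), Tspan7, Cnksr2 (263) and Fmr1 (283). By total count it was Dlg3 (place 70 of 501), Pak3 (77), Tspan7, Iqsec2 (131), Cnksr2 (265) and Fmr1 (337). These 2 orders differed only between Pak3 and Dlg3 and between Iqsec2 and Tspan7. In total count the changes of Dlg3 and Pak3 lay close together (log2 -0.95, SE 0.11, and -0.91, SE 0.13). So did those of Tspan7 and Iqsec2 (log2 -0.74, SE 0.09, and -0.73, SE 0.15). Differences between genes were not tested, and the places do not separate such neighbours.

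A further 23 X-linked genes of neuronal disorders were looked at as a list. So were 11 autosomal relatives of Fmr1, Pak3, Iqsec2, Cnksr2 and Dlg3, with none listed for Tspan7. Of the 23, 20 could be tested for total count, and at 24 h 9 were lower and none was higher, with a median log2 change of -0.53, against 37.9% of X-linked genes and 1.54% of all genes that were lower. For the B6 share 13 could be tested and 9 were lower at 24 h, against 75.1% of X-linked genes and 2.4% of all genes. Among the 9 were Nexmif (log2 -1.89, listed as C77370), Acsl4, an acyl-CoA synthetase (-1.74), Ap1s2, a subunit of the clathrin adaptor complex AP-1 (-1.38), Zdhhc9, a palmitoyltransferase (-1.34), and Slc6a8, the creatine transporter (-0.62). The median of the 13 was -1.26 and that of all tested X-linked genes -1.28. Acsl4 and Nexmif crossed 0.35 at 5.33 h and 5.58 h, before any of the 6 genes above. Zdhhc9, at 9.19 h, lay between Dlg3 and Cnksr2, and Syp and Slc6a8 did not reach 0.35. Syp had as few as 13 allelic reads in a sample and ended at a normalised d-score of 0.369, close to the level. The values for Slc6a8 were 316 reads and 0.401. Among those that did not pass for the B6 share, Aff2, the gene of the FRAXE fragile site, had a total count that fell by 0.54 on the log2 scale (SE 0.09, edgeR adjusted p = 0.0032) and a B6 share at log2 -0.27 (SE 0.16, edgeR adjusted p = 0.77) from a d-score of 0.870 at 0 h. Dcx had at most 2 reads in any sample, and Syn1, which lies in the same wide entry as Cask, was listed at 0.

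The autosomal relatives served as genes of the same families outside the reach of Xist in cis. Of 11, 9 were tested for total count and 7 for B6 share, and none passed at 24 h in edgeR. There 1 had an unadjusted p under 0.05 for the total count (Pak1, log2 0.17) and none for the B6 share. Their log2 changes in B6:Cast ratio at this time ran from -0.05 in Fxr2 to 0.09 in Pak2, against -0.71 to -2.25 in the 6 X-linked genes. Of the relatives, some were transcribed above and others below the X-linked member of their family. Dlg1 stood at 4.78 CPM per kb at 0 h against 0.817 for Dlg3, Pak2 at 4.33 and Pak1 at 1.38 against 0.0554 for Pak3, and Iqsec1 at 0.976 against 0.172 for Iqsec2. Fxr1 at 14.7 was above Fmr1 at 5.41, and Cnksr3 at 1.22 above Cnksr2 at 0.326. Below their X-linked member were Fxr2 at 2.94, Dlg4 at 0.018 and Dlg2 at 0.00043, Iqsec3 at 0.0017 and Cnksr1 at 0.018.

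By mean normalised d-scores at 4, 8, 12 and 24 h, the 3 most similar of 255 X-linked genes were found for each gene by Euclidean distance, and those reported here are given. For Pak3 they were Tceal8, Tbc1d8b and Firre (distances 0.036 to 0.054), for Dlg3 Phf6, Nono and Fam120c (0.021 to 0.029), and for Iqsec2 Tspyl2 and Phf6 (0.045 and 0.066). For Cnksr2 they were Nsdhl and Htatsf1 (0.011 and 0.015), for Fmr1 Ogt, A830080D01Rik and Tfe3 (0.021 to 0.024), and for Tspan7 Upf3b, Pbdc1 and Tmem29 (0.017 to 0.027). Phf6 was in the lists of both Dlg3 and Iqsec2.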

How the data were processed

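TT-seq of 10 samples (5 times with 2 replicates, grouped by the labels) was used as deposited. The files hold, per gene, the authors' read pair counts in total and for each allele, and the fraction B6 / (B6 + Cast), which the authors deposited where 10 or more allelic reads were present. Per the study's methods, reads were trimmed, aligned with STAR to an mm10 genome masked at variants, kept if unique and properly paired, split by allele with SNPSplit, and counted by featureCounts on the sense strand over whole genes, introns included. The submitters' processing notes name TopHat2 2.1.0, bedtools and featureCounts 1.5.1. Duplicate removal and spike-in scaling are not stated for these values, so that levels are relative to all counted reads. Starts in the files count from 0 and are printed with 1 added.

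Total counts were tested with edgeR 4.0.16 (R 4.3.3, quasi-likelihood test, filterByExpr, TMM, time as a factor, all 10 samples in 1 fit, 14525 genes). B6 shares were tested on both allelic counts per sample, with sample intercepts and allele-by-time terms, for 11906 genes with 10 or more allelic reads in every sample. B6 and Cast counts were also tested apart. p-values were adjusted by Benjamini-Hochberg over all genes tested, with a threshold of 0.05, and SE is the log2 change over the root of F. The replicates are separate samples, and nothing more is said of their cultures in the labels, so that p-values measure the spread between these samples. The IC35 came from a log-logistic fit of 4 parameters (scipy 1.17.1) to X-linked genes with a 0 h d-score of 0.3 to 0.7. DESeq2 1.42.0, other scalings and filters, a replicate block and leaving out each library were tried as alternatives. Replicate deviations of total counts correlated above 0.1 between all 10 pairs of times (mean 0.21), so that values with a replicate block are printed for total counts where a call changed. For the B6 share 0 of 10 did (mean 0.02), for the B6 count 9 and for the Cast count 6. The fits were tested on simulated data. For the IC35, recovery of the simulated hour was required only at the higher of the simulated allelic depths. All samples of Pak3, Iqsec2, Dlg3 and Cnksr2 and most samples of Tspan7 lay below that depth.

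The 7 genes, both lists and the markers were chosen with earlier results of these data known. Named in the text were the 7 genes, Xist, the most similar genes, and genes of the lists that passed a test or lay at an end. Some genes that this rule selects are not reported here.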

Additional observations from a re-analysis of the deposited data

How the results depend on the processing

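Of the counts of genes recomputed under alternatives, 234 stayed within 1.5 times of the reported value, 12 were lower and 5 were higher. Many of the 234 set 0 against 0, as at 4 h, and say little of stability. The tally leaves out DESeq2 for successive times. There it called 0 genes in place of 4 for the B6 share from 4 h to 8 h. No log2 change of a called gene turned its sign. DESeq2 called 2 genes in place of 4 for the B6 share at 8 h. With a replicate block the total count called 2 genes in place of 1 after 8 h and 5 in place of 3 after 12 h, and the Cast count called 1 in place of 0 at 12 h (Tspan7, adjusted p = 0.029). The replicate numbers pair the total counts only by the correlation of the data, and the block changed no other count by over 1.5 times. With it, Tspan7 also passed for the B6 share at 8 h (adjusted p = 0.037).

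Leaving out 1 library at a time left 0 to 1 genes with a lower total count after 8 h, 2 to 4 after 12 h and 3 to 5 after 24 h. For the B6 share, 2 to 5 genes passed after 8 h, 5 to 6 after 12 h and 6 after 24 h, and 1 to 4 in the step from 4 h to 8 h. For the B6 count 1 to 5 passed after 8 h and 4 to 6 after 12 h, and for the Cast count 0 to 2 after 12 h. A fit with 1 sample at a time point assumes that it varies like the others. A level of 0.40 in place of 0.35 was reached by 6 of 6 genes (Fmr1 at 9.2 h, Tspan7 at 18.34 h) and a level of 0.30 by 3. Between 4 and 5 genes reached 0.35 in a single replicate. The cause of these differences was not tested. Iqsec2 and Pak3, with 70 and 86 allelic reads in their shallowest samples, have the largest SE in the B6 share test.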

Other observations

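A wide entry such as the one that spans Cask was also listed on an autosome. On chromosome 19, the entry Gm38437 covers 35.8 Mb of the minus strand, and all 159 minus-strand genes inside it were listed at 0 in every sample, against 21 of 189 plus-strand genes. Unlike Btbd35f15, Gm38437 itself held 0 reads over all samples. Whether the overlap causes the zeros was not tested for either entry. Gm38437 was picked after its values were seen.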
